A study of Mus musculus with 6 samples.

Results

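The genes described here build and maintain the primary cilium, and were compared between Asciz knockout and wild-type mouse embryonic fibroblasts. The list holds 37 genes of intraflagellar transport, the BBSome, the transition zone and their regulators, gathered by their known function. They were found by their target names among the 30774 target names of a whole-genome bead array. Of the 37, 32 had at least 1 probe under that name and 25 passed the detection filter, which asked for a detection value of at least 0.95 on 3 or more of the 6 arrays. For each gene the brightest detected probe was used.

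The primary cilium is a single, non-motile, microtubule-based projection that most quiescent fibroblasts carry and that serves as an antenna for Hedgehog and other signals. Protein trains built from the intraflagellar transport complexes IFT-B and IFT-A move along it, outward with the motor kinesin-2 and back with the motor dynein-2. The BBSome is a coat that carries membrane proteins out of the cilium, and the transition zone at its base is the gate that controls entry. Asciz, now called Atmin, encodes a zinc-finger transcription factor that activates Dynll1, and Dynll1 encodes the light chain LC8 of cytoplasmic dynein and of dynein-2. Loss of Atmin in mice has been associated with altered cilia. The series compared gene expression with and without Asciz, and the values below are those of the cilium machinery.

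The cells were primary fibroblasts from C57BL/6 embryos of embryonic day 12.5, grown in medium with fetal bovine serum and passaged a single time. The 3 knockout cultures were Asciz-/- and the 3 wild-type cultures Asciz+/+, each from a separate embryo, with no other allele or agent named. Serum-fed cells divide, and how many of them carried a cilium was not measured. RNA came from whole cultures, so fewer cells of a type and less RNA per cell cannot be told apart.

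The 6 arrays gave between 17580 and 18794 probes above background, with median intensities from 88.7 to 97.9. Atmin fell by 1.99 on the log2 scale in the knockout cultures (SE 0.16, adjusted p = 0.00717 by limma), and Dynll1 fell by 1.92 (SE 0.11, adjusted p = 0.00145 by limma). Omitting wild-type replicate 1, 2 or 3 ended the call of Atmin (differences from -2.02 to -1.94, adjusted p from 0.0675 to 0.0820 by limma). The other detected Atmin probes gave -1.94 (SE 0.14) and 0.11 (SE 0.25). The probe with 0.11 was near background, with means of 4.71 in wild-type and 4.82 in knockout cultures, and its groups overlapped. Where the Atmin probes lie relative to the deleted stretch was not given in the sources used here. All 13 fibroblast markers looked for were detected, among them the collagen chain COL1A1, vimentin (VIM) and THY1. Of the 13, 8 were higher and 5 lower in the knockout cultures, with 0 passing. The largest difference in size was -0.94 (SE 0.34) in PDGFRA, with overlapping groups. Wild-type replicate 1 was the single culture with an XX pattern, and knockout replicate 3 correlated least with the other arrays (mean r 0.980 across genes, against 0.985 to 0.989).

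A sequence feature that the list was not chosen on is the X-box, the element bound by RFX transcription factors, which are known regulators of ciliary genes. RefSeq promoters, taken from 250 bases before to 50 bases after the start of each gene, were at hand for 33 of the 37 genes. The motif searched was GTNNCC followed by GGNNAC with 1 or 2 bases between them, a palindrome that reads the same on both strands. It was present for 7 of the 33 genes (21.2%) and for 3.32% of all 27025 genes with a promoter. The 7 were BBS1, BBS4, BBS7, IFT57, MKS1, TCTN1 and TCTN2. The shorter motif GTTGCC, read on either strand and overlapping the longer motif in part, was present for 15 of the 33 genes (45.5%) and for 14.1% of all genes. In BBS1, BBS4 and TCTN1 the longer motif lay after the start. The remaining 4 are shown because they carry the motif before the start of transcription, 5′ to 3′ on the strand of the gene, with the motif in capitals (RefSeq, GRCm38.p6).
BBS7, chr3:36613472-36613535, minus strand: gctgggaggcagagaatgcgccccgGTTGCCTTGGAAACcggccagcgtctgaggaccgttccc
IFT57, chr16:49699182-49699245, plus strand: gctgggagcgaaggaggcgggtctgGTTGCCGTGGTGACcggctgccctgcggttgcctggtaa
MKS1, chr11:87853166-87853214, plus strand: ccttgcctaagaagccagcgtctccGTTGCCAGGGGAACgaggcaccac
TCTN2, chr5:124598662-124598725, plus strand: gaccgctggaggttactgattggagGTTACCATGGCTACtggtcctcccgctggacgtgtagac
Counted from the start of the gene, the first base of the motif lay at -121 in BBS7, -87 in IFT57, -24 in MKS1 and -62 in TCTN2. IFT57 held another copy with 1 base between the arms, of which the stretch shown holds all but the last base. Of these 4 genes BBS7 and MKS1 were tested by their own names, IFT57 was not detected, and TCTN2 was read by a probe under an older name (all below). A match describes these letters alone, and binding was not measured.

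None of the 25 tested cilium genes passed the test between genotypes. Over all 12824 genes tested, each counted by its target name, 7 passed an adjusted p of 0.05 by limma (0.0546%). Of these, 4 were higher and 3 lower in the knockout cultures. The 3 lower were Atmin and both target names of Dynll1, its own and the older DNCLC1 (-2.31, adjusted p = 0.00145 by limma). With updated gene names 4 were higher and 2 lower. The cilium genes had adjusted p between 0.630 and 0.995, and 1 of the 25 (4%) had an unadjusted p under 0.05, where 7.75% of all genes did. The genotypes did not overlap for 3 of the 25 (12%), beside 14.4% of all genes. All of these shares lay near or below those of all genes, and so are no result about the cilium genes.

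The estimated differences were small. Their median was -0.02 on the log2 scale (range -0.28 to 0.24) beside -0.01 over all genes, and the median size of a difference was 0.12 for the cilium genes and 0.13 for all genes. Differences were above 0 for 11 and below 0 for 14 genes, and for 3 and 22 under median scaling in place of quantiles, where the median of all genes was itself -0.17. Counted against the median of all genes, 13 were lower with quantiles and 14 with median scaling. The 95% confidence interval of every one of the 25 lay within a 2-fold change either way, with an outermost lower bound of -0.60 and an outermost upper bound of 0.76. For 21 genes it lay within 1.5-fold, the exceptions being IFT172, IFT122, IFT140 and BBS2. These intervals are per gene and not adjusted for the number of genes. Undetected probes of listed genes lay between 4.21 and 4.70, while RPGRIP1L and FOXJ1 averaged 5.13 and 5.08 in wild type. On such dim probes a fall of 2-fold or more could hardly show, so the 2-fold bound says little about a loss there.

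**Figure D1:**
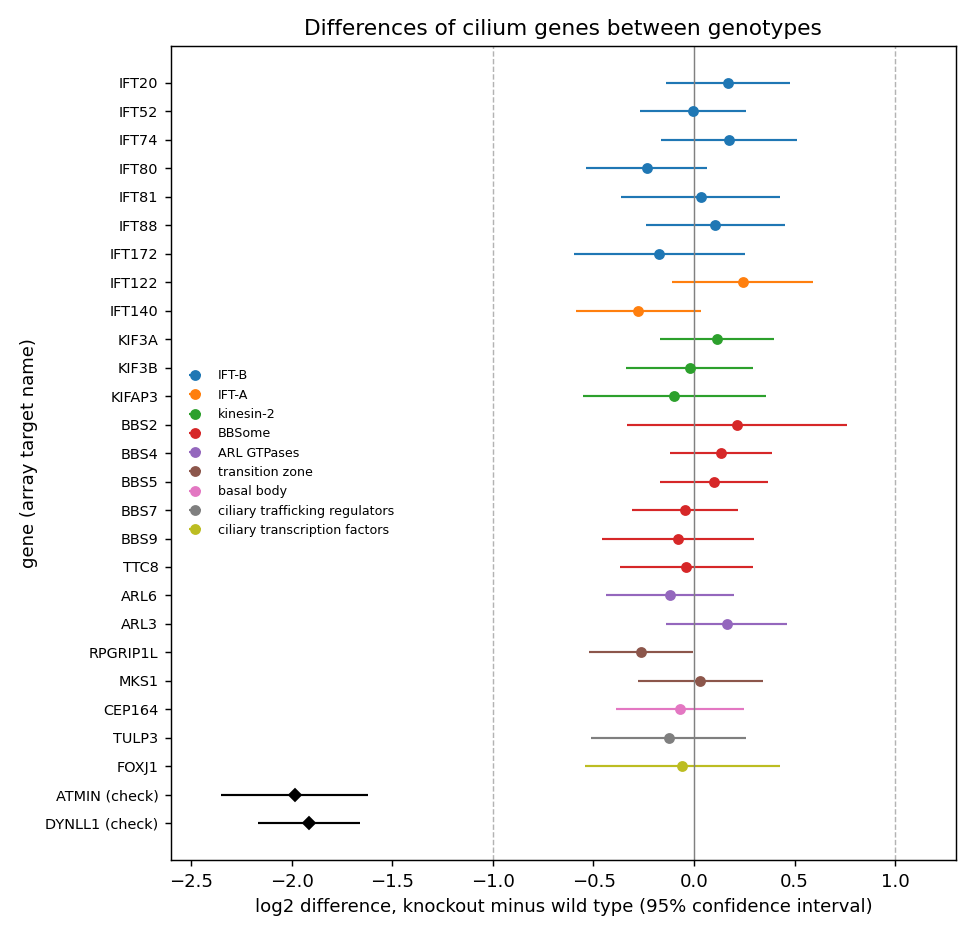
Log2 difference in normalized intensity, knockout minus wild type, for the 25 tested cilium genes, coloured by complex, with Atmin and Dynll1 (black diamonds) as checks of the genotype. Horizontal bars are 95% confidence intervals and dashed lines mark 2-fold changes. The intervals of all cilium genes lie between -0.60 and 0.76, while Atmin and Dynll1 lie near -2.

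IFT-B, the complex of the outward trains, was represented by 7 of its 10 listed genes. Of these, 4 were above and 3 below 0, with a median difference of 0.03. IFT20, the subunit also found at the Golgi, where it helps sort membrane cargo for the cilium, read 11.85, 11.92 and 11.87 in wild-type and 11.86, 12.04 and 12.25 in knockout replicates 1 to 3 (normalized log2 intensity). Its groups overlapped, knockout replicate 3 was highest, and the difference was 0.17 (SE 0.13, adjusted p = 0.783 by limma). The other IFT20 probes gave 0.35 (SE 0.15) and 0.42 (SE 0.25), so all 3 were above 0. On the probe with 0.35 the knockout arrays, at 9.88, 9.92 and 10.09, lay above all wild-type arrays, at 9.37, 9.65 and 9.82 (adjusted p = 0.656 by limma over all detected probes).

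The IFT74 and IFT81 proteins pair to form the tubulin-binding module of IFT-B. IFT74 read 6.67, 6.60 and 6.44 in wild-type and 6.94, 6.51 and 6.78 in knockout cultures, a difference of 0.18 (SE 0.15), and its other detected probe gave -0.06. IFT81 read 8.55, 8.72 and 8.59 against 8.39, 8.56 and 9.002, a difference of 0.03 (SE 0.17). In both genes the groups overlapped, and the knockout arrays spread more widely than the wild-type arrays. The 3 IFT81 probes gave 0.03, 0.17 and 0.08.

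IFT172, a large peripheral subunit that helps trains turn around at the ciliary tip, read 8.53, 8.98 and 8.33 in wild-type and 8.34, 8.37 and 8.61 in knockout cultures. Its high value was wild-type replicate 2 and the difference was -0.17 (SE 0.18, adjusted p = 0.843 by limma); its other probes gave -0.11 and -0.14. IFT80, known from a skeletal ciliopathy in people, had the largest IFT-B difference in size, with 6.32, 6.41 and 6.07 against 5.96, 6.10 and 6.02. Knockout replicate 2 lay just above wild-type replicate 3, so the groups overlapped, and the difference was -0.24 (SE 0.13, adjusted p = 0.687 by limma). IFT52, a core scaffold subunit, stood at 9.46 ± 0.06 in wild type and 9.46 ± 0.10 in knockout cultures (mean ± SD, n = 3 each). IFT88, also called polaris, whose mouse mutant has polycystic kidneys, stood at 6.63 ± 0.21 and 6.74 ± 0.16 (n = 3 each), a difference of 0.11 (SE 0.15).

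IFT-A serves the return trip and the entry of membrane receptors, and its 2 detected subunits pointed in opposite directions. IFT140, a core subunit, read 7.08, 7.30 and 6.93 in wild-type and 6.74, 6.81 and 6.92 in knockout cultures. The knockout arrays lay below all wild-type arrays, with knockout replicate 3 only just below wild-type replicate 3. Its difference of -0.28 (SE 0.13, adjusted p = 0.661 by limma) was the lowest among the 25 genes, and its other detected probe gave -0.18 with overlapping groups. IFT122, another core subunit, read 6.01, 6.06 and 6.27 against 6.09, 6.50 and 6.47, with overlapping groups and the highest difference, 0.24 (SE 0.15, adjusted p = 0.728 by limma).

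Kinesin-2, the outward motor, had all 3 subunits detected. The motor subunit KIF3A read 9.15, 9.38 and 9.38 in wild-type and 9.44, 9.49 and 9.32 in knockout cultures, a difference of 0.12 (SE 0.12), while its other detected probe gave -0.19 (SE 0.18). Its partner KIF3B read 7.93, 7.67 and 7.95 against 7.66, 7.93 and 7.89, a difference of -0.02 (SE 0.14). The groups overlapped for both motor subunits. KIFAP3, the accessory subunit that links the motor to cargo, read 9.46, 10.02 and 9.75 against 9.73, 9.33 and 9.88, a difference of -0.10 (SE 0.20). Its highest value was wild-type replicate 2 and its lowest knockout replicate 2, and its 3 probes lay between -0.10 and 0.12.

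Of 11 cilium genes with more than 1 detected probe, 3 had probes that disagreed in sign, namely IFT74, KIF3A and KIFAP3. The remaining 8 were IFT20, IFT52, IFT81, IFT172, IFT140, KIF3B, TTC8 and ARL3. In ARL3 both probes read above 0 (0.16 and 0.13), and in TTC8 both read below 0 (-0.04 and -0.17).

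**Figure D2:**
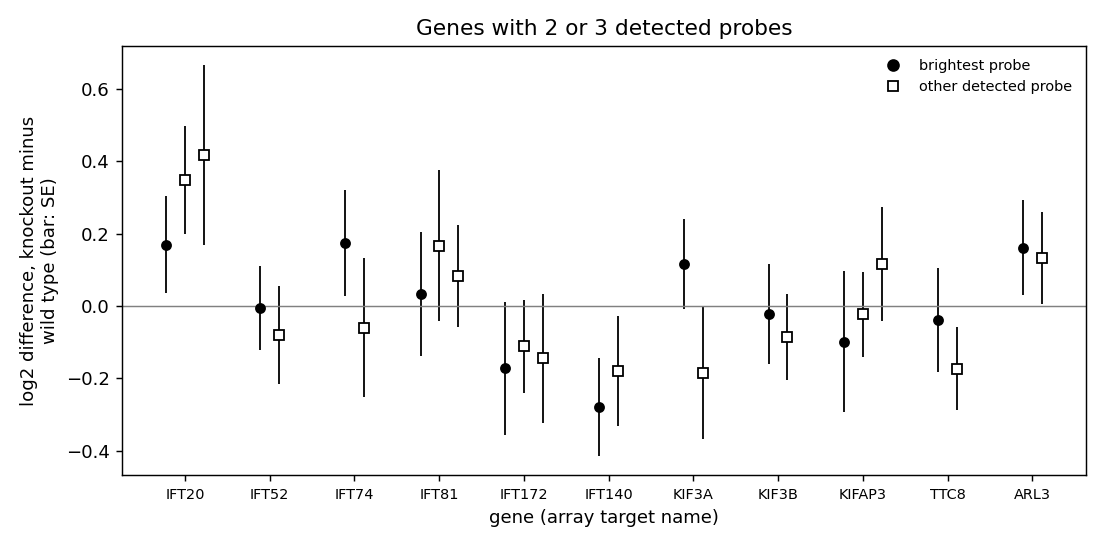
Log2 difference, knockout minus wild type, of each detected probe for the 11 cilium genes with 2 or 3 detected probes. Filled circles are the brightest probe, open squares the other probes, and bars are standard errors from a model over all detected probes. The largest value is 0.42 for an IFT20 probe, and the probes of IFT74, KIF3A and KIFAP3 fall on both sides of 0.

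The BBSome was represented by 6 of its 7 listed subunits, with 3 above and 3 below 0 and a median difference of 0.03. BBS4, which links the coat to centriolar satellites, read 7.17, 7.16 and 7.13 in wild-type and 7.18, 7.32 and 7.36 in knockout cultures. All knockout arrays lay above all wild-type arrays, by a small margin, and the difference was 0.13 (SE 0.11, adjusted p = 0.792 by limma). BBS2, a core subunit, spread most, with 5.55, 5.61 and 5.31 against 5.23, 6.19 and 5.69. Its knockout SD was 0.48, knockout replicates 1 and 2 were the lowest and the highest of the 6 arrays, and the difference of 0.21 had an SE of 0.24.

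BBS5, a subunit that binds phosphoinositides, read 8.29, 8.29 and 8.25 in wild-type and 8.24, 8.49 and 8.39 in knockout cultures, a difference of 0.10 (SE 0.12). BBS7, whose promoter carries the X-box shown above, stood at 8.25 ± 0.09 and 8.21 ± 0.07 (n = 3 each). BBS9 stood at 5.92 ± 0.19 and 5.84 ± 0.24, and TTC8, the subunit also called BBS8, at 7.57 ± 0.10 and 7.53 ± 0.21 (n = 3 each). In these 4 genes the groups overlapped.

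Both ARL GTPases were detected. ARL6, the small GTPase that recruits the BBSome to membranes, read 8.70, 8.71 and 8.38 in wild-type and 8.59, 8.38 and 8.45 in knockout cultures, a difference of -0.12 (SE 0.14). ARL3, which releases lipid-modified cargo inside the cilium, read 10.40, 10.25 and 10.54 against 10.47, 10.51 and 10.70, a difference of 0.16 (SE 0.13). For both the groups overlapped.

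RPGRIP1L, a scaffold protein of the transition zone, was the single cilium gene with an unadjusted p under 0.05 in the fit of brightest probes. In the fit over all detected probes its unadjusted p was 0.0504 by limma. There the IFT20 probe with a difference of 0.35 had an unadjusted p of 0.0469 by limma. RPGRIP1L read 5.02, 5.17 and 5.19 in wild-type and 4.91, 4.82 and 4.86 in knockout cultures, and the groups did not overlap. The difference was -0.26 (SE 0.11, 95% confidence interval -0.52 to -0.00536, unadjusted p = 0.0464, adjusted p = 0.630 by limma). The probe lay close to background and was detected on 3 wild-type and 2 knockout arrays. In unnormalized brightness it read 112.6, 101.9 and 112.6 against 105.0, 96.0 and 94.7 intensity units. MKS1, a further transition zone protein and mutated in Meckel syndrome in people, read 6.01, 6.21 and 5.92 against 6.07, 5.94 and 6.23, a difference of 0.03 (SE 0.13) with overlapping groups.

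Among the remaining genes, CEP164, the distal-appendage protein that docks the basal body, read 8.16, 8.38 and 8.51 in wild-type and 8.42, 8.26 and 8.16 in knockout cultures (difference -0.07, SE 0.14). TULP3, the adaptor that carries receptors into the cilium with IFT-A, read 7.90, 8.24 and 8.36 against 7.82, 8.21 and 8.10 (difference -0.13, SE 0.17). FOXJ1, the master regulator of motile cilia, was near background, with 5.10, 4.96 and 5.19 against 5.51, 4.75 and 4.81 (difference -0.06, SE 0.21). Its highest and lowest values were both in knockout cultures, and it was detected on 3 wild-type and 2 knockout arrays. Of 18 listed markers of multiciliated cells, 8 had no target name and 10 were on the array. TEKT1, SPAG6, DNAIC1, CCDC39 and CCDC40 were detected on no array, and 3 markers passed the filter. TPPP3, a tubulin-binding protein, was detected on all 6 arrays and read 6.19, 6.27 and 6.70 in wild-type against 7.18, 7.11 and 8.33 in knockout cultures. Its groups did not overlap, but its difference of 1.16 (SE 0.32, adjusted p = 0.506 by limma) did not pass. RSPH1, a radial spoke protein, had 0.14 (SE 0.19) and CCNO -0.18 (SE 0.28), both with overlapping groups. The mean of the 3 markers lay between 5.65 and 5.94 in wild-type and between 6.02 and 6.29 in knockout cultures. That shift came mainly from TPPP3, as RSPH1 and CCNO were small and opposite in sign. The part of this mean in the values of the cilium genes was not tested.

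**Figure D3:**
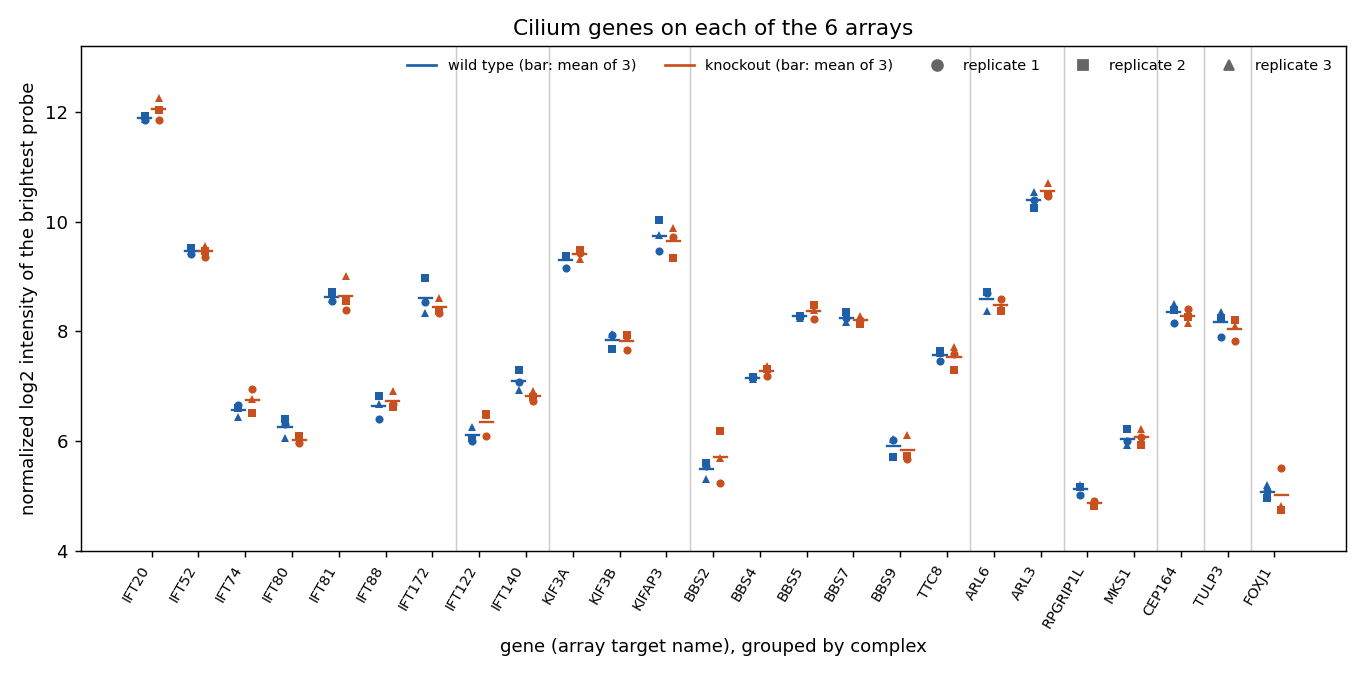
Normalized log2 intensity of the brightest probe of each of the 25 tested cilium genes on each array, in blue for wild type and orange for knockout, with the marker shape giving the replicate and horizontal bars the mean of 3 arrays. Vertical lines divide the complexes, and heights of different genes are not comparable because each probe has its own response. The genotypes overlap for 22 of the 25 genes and are separate for IFT140, BBS4 and RPGRIP1L.

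The 12 genes that could not be tested fall into 2 kinds. BBS1, IFT57, KIF7, OFD1, RFX3, TTC21B and WDR35 had 11 probes in all, and none was detected on any array. Their normalized levels lay between 4.21 and 4.70, and the lowest level of a detected probe was 4.75 to 4.87 depending on the array. This order is set by the detection value itself and adds nothing to it. IFT27, IFT46, CEP290, TCTN1 and TCTN2 had no probe under these names. A reference gene table gave older names for 4 of these 5. IFT27, carried as RABL4, was detected on all arrays by 2 probes, with differences of 0.08 (SE 0.16) and 0.21 (SE 0.12). On the second, the knockout arrays lay above all wild-type arrays. TCTN2, carried as 4432405B04RIK, read 6.62, 6.73 and 6.75 in wild-type and 6.49, 6.59 and 6.22 in knockout cultures, a difference of -0.27 (SE 0.14) with groups that did not overlap. Probes for IFT46 (detected on 1 array) and TCTN1 (on none) stayed below the filter. With names updated throughout, 27 cilium genes were tested and 0 passed (1 with an unadjusted p under 0.05).

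Single cultures stood out across the cilium genes. Knockout replicate 3 was the highest of the 6 arrays for 9 of the 25 genes, where it was highest for 23.9% of all genes, and it was lowest for 0, where it was lowest for 25.5% of all genes. Wild-type replicate 1 was highest for 0 of the 25, beside 15.0% of all genes. The mean over the 25 genes was 7.65, 7.76 and 7.69 in wild-type and 7.64, 7.67 and 7.78 in knockout replicates 1 to 3, so the means overlapped. The median difference was -0.05 without knockout replicate 3, -0.03 without wild-type replicate 1 and -0.08 without both, with 0 of the 25 passing each time. It was 0.03 without wild-type replicate 2, 0.03 without knockout replicate 1 and 0.04 without knockout replicate 2, so its sign depended on single cultures. The IFT-B mean was also highest in knockout replicate 3, at 8.25, 8.42 and 8.20 against 8.22, 8.24 and 8.45.

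Bead counts bear on how precise each reading was. Each brightest probe was read from at least 26 beads on every array. The standard error over beads was a median of 3.31% of the signal in RPGRIP1L and 6.15% in TULP3, the ends of the range. The signal here is unnormalized brightness with background included, so these shares understate the error of dim probes. RPGRIP1L read 94.7 to 112.6 intensity units, where the undetected BBS1 probe read 84.8 to 98.1, so its low share does not make it the most precise. The standard errors of the differences, which include the spread between cultures, ran from 0.11 to 0.24 on the log2 scale, with a median of 0.14.

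Other genes of the cilium were taken from 8 further lists holding 94 genes, of which 63 passed the filter. Of these, 1 fell (Dynll1) and 0 rose past an adjusted p of 0.05, 43 were below 0 and 20 above, with a median of -0.05. In the list of the return motor dynein-2, DYNLL1 read 13.21, 13.07 and 13.11 in wild-type and 11.19, 11.22 and 11.23 in knockout cultures, the only gene of its 9 to pass. The other subunits did not. The paralogue DYNLL2 had 0.07 (SE 0.14), the heavy chain DYNC2H1 -0.25 (SE 0.16) and the light intermediate chain DYNC2LI1 0.33 (SE 0.14). The intermediate chains WDR34 and WDR60 had -0.05 (SE 0.19) and -0.15 (SE 0.12). DYNLT3 had 0.19 (SE 0.12), TCTEX1D2 0.04 (SE 0.12) and DYNLRB1 0.01 (SE 0.11). Groups did not overlap for 3 of the 9, beside 14.4% of all genes: DYNLL1, lower in knockout, and DYNC2LI1 and DYNLT3, higher in knockout.

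The list of basal body and ciliogenesis genes had 15 of 18 tested genes below 0 (6592 of 12824 among all genes), with a median of -0.12 and 0 passing. EVC, a Hedgehog-signal protein at the ciliary base, had the smallest p, at 7.60 ± 0.087 for wild type against 7.23 ± 0.17 for knockout (mean ± SD, n = 3 each). Its difference was -0.37 (SE 0.13, adjusted p = 0.602 by limma) and the groups did not overlap. Over the list, 5 of 18 genes had groups that did not overlap, beside 14.4% of all genes, and its mean was 8.02, 7.95 and 7.93 against 7.86, 7.83 and 7.80. Without wild-type replicate 1 its median was -0.07, and without wild-type replicate 2 also -0.07. Under median scaling all 18 were below 0, with a median of -0.31, or -0.13 relative to all genes. With updated gene names 21 genes of this list were tested, 15 below and 6 above 0, with a median of -0.10, or -0.09 relative to all genes. The list was chosen with earlier results of these data known. In each remaining list the gene with the smallest p did not pass. TTC30B of the further IFT subunits had -0.16, BBS12 of the BBS chaperones -0.25 and NPHP4 of the further transition zone genes -0.27. RFX2 of the RFX family had -0.41, NEDD9 of the disassembly genes 0.24 and the Hedgehog receptor PTCH1 -0.64 (SE 0.29), with adjusted p from 0.645 to 0.867 by limma over these 6.

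Cilia are taken down before mitosis, and cycling-cell markers lay lower in the knockout cultures. Of 21 listed markers 17 were tested, all 17 below 0, with a median of -0.35 and 0 passing. Their mean lay between 9.11 and 9.33 in wild-type and between 8.66 and 8.89 in knockout cultures. BUB1, CCNB2 and CCNA2 were detected on no array, and AURKA and PLK1 belong to both this list and that of cilium disassembly. Of 14 macrophage markers 8 were tested and all 8 were below 0, with means of 5.99 to 6.67 and 5.35 to 5.62; LYZ1 and PTPRC were detected on no array. Of 16 skeletal muscle markers 13 were tested and 12 were above 0, with means of 7.59 to 8.29 and 8.39 to 8.82, and CKM was detected on no array. Of 10 neural markers 4 were tested and all 4 were above 0, with means of 8.11 to 8.15 and 8.28 to 8.61, while TUBB3, ELAVL3, ELAVL4 and FOXD3 were detected on no array. No gene of these 3 lists passed. The part of these shifts in the values of the cilium genes was not tested.

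**Figure D4:**
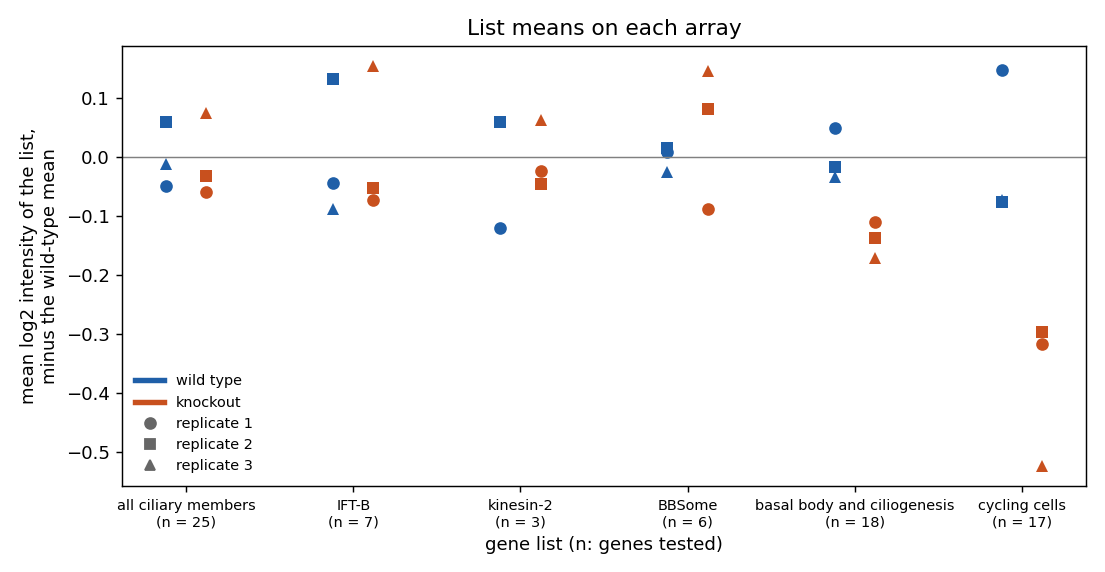
Mean log2 intensity of each gene list on each array, after subtracting the wild-type mean, with wild type in blue, knockout in orange and the marker shape giving the replicate. The genotypes overlap for all 25 tested cilium genes and for IFT-B, kinesin-2 and the BBSome, and they are separate for the basal body and ciliogenesis list and for the cycling-cell markers.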

How the data were processed

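Total RNA of 6 cultures was read on one-colour MouseWG-6 bead arrays. The authors deposited the mean bead intensity of each probe before normalization, with bead SD and bead counts, exported from GenomeStudio 1.6.0 per the file headers. Each probe also has a deposited detection fraction between 0 and 1, where high values mean detected. A second deposited table, a score from lumi per the submitters' processing notes, has a transformation not given in the sources used here and served as an alternative. The remaining table, with log2-like values per the deposited file, was not used, nor were 24 of the 48 array columns in the intensity table.

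Normalization was done by neqc in limma 3.58.1 (R 4.3.3), with offset 16, giving quantile-normalized log2 values. Of 45281 probes, 18221 passed the detection filter, and the brightest per target name (case ignored) gave 12824 genes. They were fitted together by lmFit and eBayes, as knockout minus wild type. The two-sided p-values were adjusted by Benjamini-Hochberg across these genes, and 0.05 was the threshold. The 3 arrays per group limit the precision. The fit was tested on simulated data.

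Members and lists were chosen with earlier results of these data known. The naming rule allowed values for every tested member. It asked for array values of members with an unadjusted p under 0.05, of members whose groups were clearly separate by at least 0.3, and of the brightest and dimmest of each complex, and for the gene with the smallest p of every other list. Array values of the remaining members, further probes and dynein-2 subunits were added after their values were seen. Older gene names came from a GRCm38.p6 table. Alternatives covered background, scaling, filter, probe rule, names, variance model, array weights, the replicate block, culture sex and arrays left out.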

Additional observations from a re-analysis of the deposited data

How the results depend on the processing

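Under each of 20 alternatives (19 distinct fits, since culture sex as a covariate and leaving out wild-type replicate 1, the only XX culture, are the same fit), and at an adjusted p of 0.1, 0 cilium genes passed by limma, with between 0 and 2 genes at an unadjusted p under 0.05. Of the 25 genes, 7 kept the sign of their difference wherever they were fitted (IFT20, IFT80, IFT122, IFT140, ARL6, RPGRIP1L and TULP3). The other 18 changed it at least once, so most of these signs depended on the processing or on single cultures. IFT74, BBS4, BBS5 and ARL3 changed sign under median scaling alone, where the median of all genes also moved down. RPGRIP1L and FOXJ1 were fitted in 19 of the 20, being left out where detection on all 6 arrays was asked for. Scaling arrays to a common median moved the median of the cilium genes to -0.2233, of IFT-B to -0.1990, of kinesin-2 to -0.2593 and of the BBSome to -0.1972, beside a shift of all genes to -0.1733. The count of all genes passing, 7 as reported, was 3 without background correction, 3 in the submitters' normalized values, 4 without a filter on dim probes, 2 with culture sex as a covariate and between 2 and 6 with 1 array left out. Atmin also lost its call when its detected probes were averaged (-1.27, adjusted p = 0.0568). With the replicate number as a block (replicate block), 0 cilium genes and 6 genes in all passed. Same-numbered cultures did not consistently deviate together across genes (r = 0.23, -0.19 and -0.20). These are deviations from a group mean of 3 arrays, which sum to 0 in each group, so they cannot decide whether the numbers pair the samples. The difference of the dim RPGRIP1L probe was -0.26 as reported, -0.0860 without background correction and -0.0495 in the submitters' normalized values; signal close to background limits this value and that of FOXJ1. Sign changes of the medians and single genes concern values that passed no test, and the cause of each change was not tested.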
